A study of Mus musculus with 5 samples.

Results

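Interferon-responsive genes were examined in 5 mouse embryonic stem cell (ESC) lines. The set holds 42 genes, chosen by name, beside 27962 gene names on the whole array: 3 receptor chains, 5 signalling factors, 5 sensors of viral nucleic acid and 29 effectors. Of these, 38 had at least 1 probe under the same gene name on the array, with 59 probes among the 41174 of the whole array. Another 3 (Irf9, Dhx58 and Gbp3) were found through RefSeq accessions or synonyms under older names, and Xaf1 was not found. They are given below with that remark and are not in the counts.

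RNA was measured once per line. RF8, the line in which the knock-in was first made, is wild type, labelled male and of 129sv origin. #620-2 is wild type, labelled female and of mixed C57BL6/129sv origin. The 3 ECAT11EGFP/EGFP lines, #620-6 (labelled female), #757-1 and #757-2 (both labelled male), share that mixed origin, and in them both copies of the coding region of ECAT11 (also called L1td1, an RNA-binding protein of ESCs) are replaced by EGFP with a puromycin cassette. None of the lines was given interferon. All were grown on gelatin with serum and LIF. The lines of mixed origin came from blastocysts put on SNL feeder cells, and each line is 1 clone, so the lines are the replicates.

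Interferons are secreted proteins that warn cells of viral infection. Type I interferons bind the receptor made of Ifnar1 and Ifnar2, and interferon gamma binds Ifngr1 and Ifngr2. JAK kinases at these receptors then start a signal that ends in the nucleus. In the type I response a complex with Stat2 and Irf9 binds the interferon-stimulated response element (ISRE) in promoters, and the gamma response also acts through the gamma-activated site (GAS). The genes switched on in this way include enzymes that cut or edit viral RNA, GTPases that trap microbes and membrane proteins that block entry. Pluripotent cells are known for a weak response to interferon and for constant levels of some of these effectors.

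Promoter sequences are shown first for 5 effectors whose signal separated the lines, because they carry the letters through which the pathway is known to act. Each is the 250 bases before the annotated start, from RefSeq on GRCm38.p6, 5′ to 3′ on the strand of the gene. Capitals mark the core of the ISRE, searched as GAAANNGAAA or its complement TTTCNNTTTC, and neighbouring matches can overlap. Isg15 lies at chr4:156200819-156201068 (minus strand), Gbp2 at chr3:142620413-142620662 (plus), Igtp at chr11:58199306-58199555 (plus), Bst2 at chr8:71537473-71537722 (minus) and Ifit3 at chr19:34583279-34583528 (plus).
Isg15: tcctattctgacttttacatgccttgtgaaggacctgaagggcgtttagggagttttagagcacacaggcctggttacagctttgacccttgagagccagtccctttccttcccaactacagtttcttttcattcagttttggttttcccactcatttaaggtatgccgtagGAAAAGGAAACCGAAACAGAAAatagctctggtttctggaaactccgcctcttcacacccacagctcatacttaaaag
Gbp2: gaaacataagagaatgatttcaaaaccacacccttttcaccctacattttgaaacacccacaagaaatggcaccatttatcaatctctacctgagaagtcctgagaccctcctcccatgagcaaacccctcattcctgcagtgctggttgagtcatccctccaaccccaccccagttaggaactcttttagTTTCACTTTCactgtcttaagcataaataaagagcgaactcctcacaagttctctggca
Igtp: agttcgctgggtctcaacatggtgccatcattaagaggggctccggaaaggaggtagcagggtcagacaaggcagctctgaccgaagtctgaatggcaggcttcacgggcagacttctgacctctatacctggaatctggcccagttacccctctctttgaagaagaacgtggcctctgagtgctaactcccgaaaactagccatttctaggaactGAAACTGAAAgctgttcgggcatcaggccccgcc
Bst2: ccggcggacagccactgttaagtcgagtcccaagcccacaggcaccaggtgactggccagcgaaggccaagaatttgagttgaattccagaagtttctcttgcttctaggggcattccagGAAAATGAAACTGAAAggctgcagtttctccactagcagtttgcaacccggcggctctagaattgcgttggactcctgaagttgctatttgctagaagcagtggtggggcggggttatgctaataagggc
Ifit3: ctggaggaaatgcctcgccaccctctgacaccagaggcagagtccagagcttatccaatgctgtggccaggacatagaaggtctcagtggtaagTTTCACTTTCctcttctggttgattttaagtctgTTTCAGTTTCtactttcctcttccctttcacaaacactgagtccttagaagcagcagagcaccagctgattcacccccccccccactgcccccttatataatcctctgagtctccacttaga
The core was found 3 times before Isg15, 2 times before Bst2 and Ifit3, and 1 time before Gbp2 and Igtp. In Isg15 the 3 matches followed each other at 78, 72 and 66 bases before the start.

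Among the 42 genes, 34 had a promoter window in the table and 12 of them (35.3%) held an ISRE core, beside 936 of 27025 genes (3.46%) over the whole table. The 12 were Stat2, Ifit1, Ifit3, Isg15, Oas1a, Gbp2, Gbp3, Igtp, Ifitm2, Bst2, Rsad2 and Cxcl10. The GAS, searched as TTCNNNGAA, which reads alike on both strands, was found in 8 of the 34 (23.5%) and in 8.13% of all genes with a window. Its members were Ifnar2, Irf1, Ifit2, Oas1a, Igtp, Bst2, Eif2ak2 and Isg20. In Bst2 it overlapped an ISRE core, the only overlap of the 2 motifs in these windows. A match is a string of letters, and no binding was measured here.

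**Figure D1:**
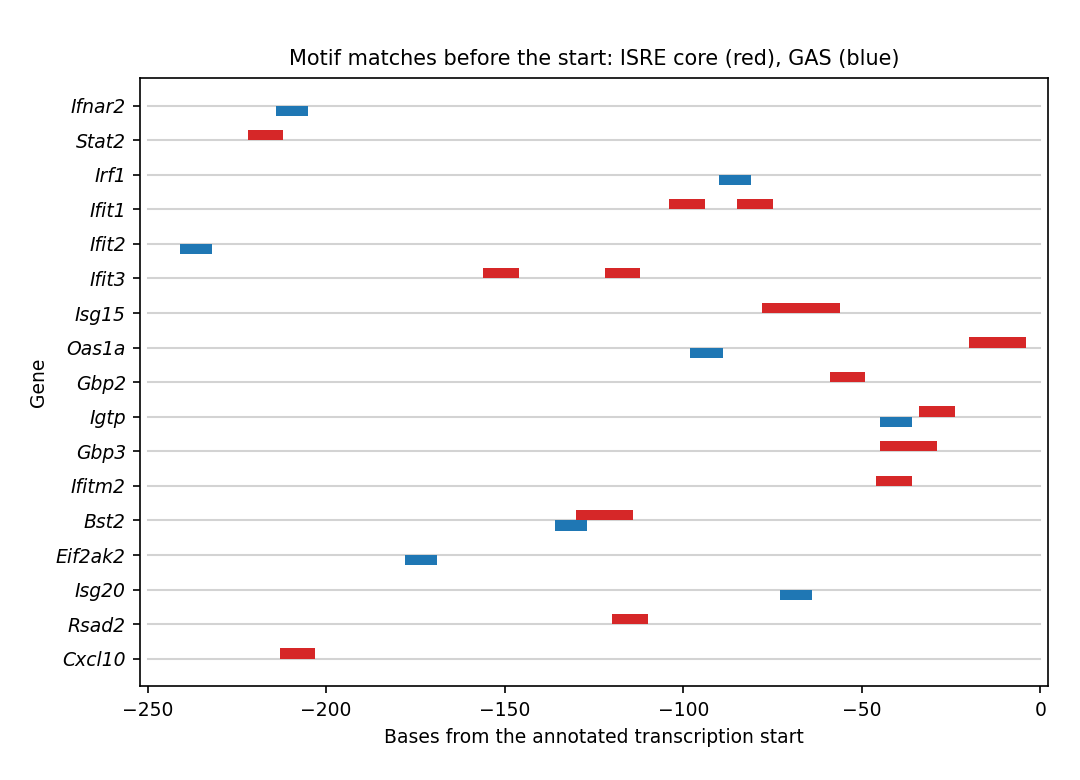
Position of each ISRE core (red) and GAS (blue) match in the 250 bases before the annotated start of the 17 genes with a match. The horizontal axis gives bases from the start, and each bar spans the letters matched. The 3 matches of Isg15 join into 1 block that begins 78 bases before the start.

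Signal is given throughout as the log2 of the background-corrected intensity over the 75th percentile of the same array, so that 0 is the 75th percentile and 1 unit is a 2-fold difference. Values follow the order RF8, #620-2, #620-6, #757-1 and #757-2 unless stated. Signals of different probes are not set against each other. A probe that the scanner software did not find well above background has only an approximate upper limit, and this matters here because the arrays lay on 2 slides. RF8 and both #620 lines were on slide 1, where 64% to 65.9% of probes were well above background. Both #757 lines were on slide 2, with 53.6% and 51.6%. The lowest signal well above background lay between -6.23 and -5.91 on slide 1, and at -4.5 and -4.23 on slide 2. It is used below as the limit of an array, but it is approximate, since a probe can exceed it and still fail. The interferon gene Ifna9 did so in #757-1, at -4.21. No spot was saturated. Of the 38 genes, 32 were well above background in each line of slide 1, 26 in #757-1 and 25 in #757-2. Over all 5 lines, 25 genes were well above background throughout, 10 in some lines and 3 (Irf7, Mx1 and Ifi44) in none.

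All 8 ESC markers with a probe, Pou5f1, Sox2 and Nanog among them, were well above background in every line, but not at one level. Nanog read 2.53, 3.95, 4.53, 3.43 and 3.70, and Esrrb 2.56, 3.83, 3.74, 3.34 and 3.62, both lowest in RF8. Zfp42 spanned 3.13, lowest in #757-2 at 3.87 and next in #620-6, which were the 2 highest lines for Oas1a. The median log2 difference of the ESC markers between RF8 and the other lines was -0.30. Pou5f1, Zfp42, Tdgf1, Utf1 and Dppa4 were not lowest in RF8. Of 8 macrophage and leukocyte markers, 4 to 6 were well above background in a line. Cd68, Cd14 and Fcer1g were so in every line, Tyrobp in #620-6 and #757-2, Csf1r in #620-6 only, Ptprc in #757-1 only (-1.56) and Emr1 in none. Their summed signal, in units of the 75th percentile, was 1.59 in #620-6 and 0.729 to 0.957 in the other lines. The part of these markers in the results was not tested.

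**Figure D2:**
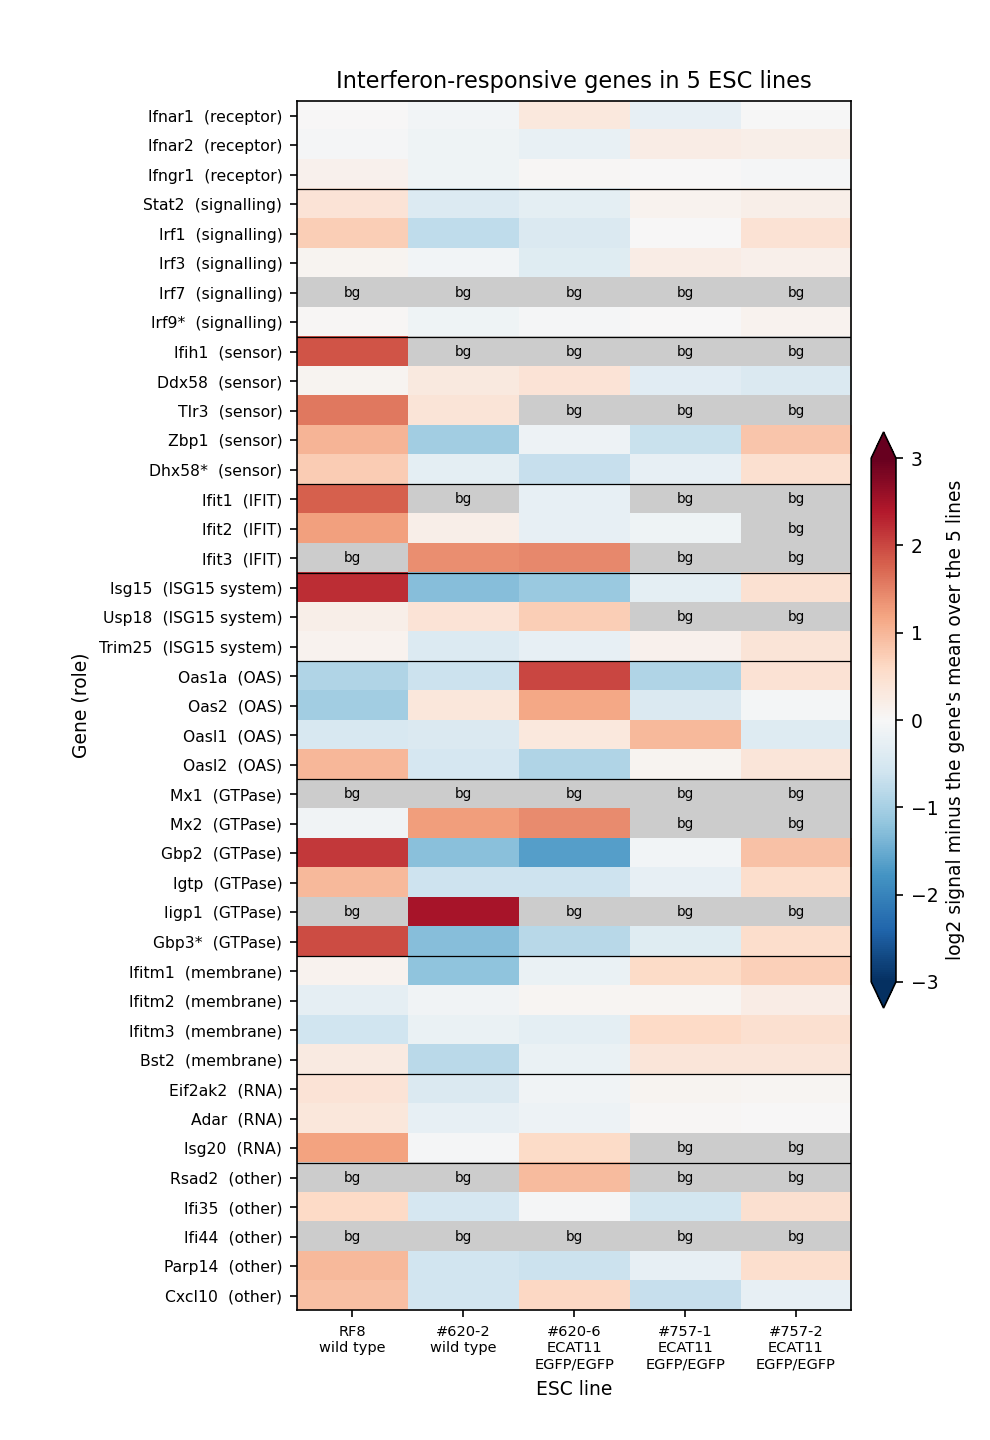
Signal of each gene in each line, as the log2 difference from the mean of that gene over the 5 lines (colour scale from -3 to 3). Rows are genes grouped by role, with an asterisk where the probe was named through RefSeq. Grey cells marked bg were not well above background. Receptors stay near white, while Isg15, Gbp2 and Gbp3 are darkest in RF8 and Ifit3 and Mx2 are red in both #620 lines.

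The receptor chains were present at nearly the same signal in every line. Ifnar1, a chain of the type I receptor, read 1.09, 0.99, 1.39, 0.82 and 1.07. Its partner Ifnar2 read 0.12, 0.02, -0.08, 0.38 and 0.32. Ifngr1, the ligand-binding chain for interferon gamma, read 1.16, 0.91, 1.07, 1.04 and 1.00. By these, the brightest probes, the widest gap between any 2 lines was 0.57 (1.48-fold), for Ifnar1, and the groups overlapped in genotype and in the gender label for Ifnar1 and Ifngr1. A second, dimmer probe of Ifnar2 was lowest in RF8, at -2.62, and between -2.30 and -1.86 elsewhere.

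Among the signalling factors, Irf1 and Stat2 differed between lines more than Irf3 and Irf9 did. Irf1, a transcription factor that interferon gamma induces through a GAS, read 4.80, 3.30, 3.63, 4.08 and 4.49. RF8 was highest and both #620 lines were lowest, a span of 1.49 (2.82-fold), and a second probe of Irf1 gave the same order with gaps of at most 0.11. Stat2, which acts with Irf9 in the type I response, read -0.00, -0.81, -0.71, -0.29 and -0.22, again with RF8 highest and the #620 pair lowest. Irf3, which turns on interferon genes after a virus is sensed, read 2.60, 2.43, 2.16, 2.73 and 2.66. Irf9, the DNA-binding part of the type I complex, was listed under the older name Isgf3g and read -0.56, -0.73, -0.63, -0.59 and -0.51, a span of 0.22. Irf7, which amplifies the production of type I interferon, was not well above background in any line.

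Of the cytosolic and endosomal sensors, Ddx58 (RIG-I, which binds viral RNA ends) was the steadiest, at 0.51, 0.73, 0.84, 0.09 and 0.00. Ifih1 (MDA5, which binds long double-stranded RNA) was well above background in RF8 only, at -4.10. Against the mean of the limits of the other 4 lines this is 2.18-fold higher, but the limit on #757-2, -4.23, lay close to the value of RF8. Tlr3, a receptor for double-stranded RNA in endosomes, was well above background in RF8 at -4.00 and in #620-2 at -5.18, and in no ECAT11EGFP/EGFP line. Zbp1, a sensor of Z-form nucleic acid, read -0.51, -2.55, -1.66, -2.18 and -0.69, a 4.13-fold span with RF8 and #757-2 at the top. Dhx58 (LGP2), listed under the older name D11Lgp2e, followed the order of Zbp1 at the top, with RF8 at -2.57 and #757-2 at -2.84 above #757-1 at -3.58, #620-2 at -3.62 and #620-6 at -4.02.

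The IFIT genes, whose proteins bind foreign RNA, did not share 1 order of the lines. Ifit1 was well above background in RF8 at -3.95 and in #620-6 at -5.99. Ifit2 read -2.83 in RF8, -3.88 in #620-2, -4.32 in #620-6 and -4.20 in #757-1, and was not well above background in #757-2. Ifit3 was well above background in the #620 pair only, at -4.50 in #620-2 and -4.46 in #620-6. The limits on slide 2, -4.5 and -4.23, lay at about those values, so that Ifit3 separated the pair from RF8 and gives no order against the #757 lines. Ifit1 and Ifit2 were highest in RF8, and Ifit1 and Ifit3 both hold 2 ISRE cores.

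Isg15, the ubiquitin-like protein that is joined to other proteins after interferon, spanned 11.4-fold. Its log2 signal was -0.09, -3.60, -3.42, -2.61 and -1.86. RF8 stood above the next line, #757-2, and the 2 wild-type lines were the highest and the lowest of the 5. The files place this probe on chromosome 17 (mm7), while RefSeq places Isg15 on chromosome 4. The accession is that of Isg15, and whether a copy elsewhere adds to the signal was not tested. Each of the other 62 probes that were compared lies on the chromosome of its gene, but positions within a chromosome were not compared. A dimmer probe of Ifitm2 is placed at base 43008745 of chromosome 7, far from the brightest at 137372276. The gap between these probes was at most 0.06 in a line. Usp18, which removes Isg15 from proteins, was dim, at -5.28, -5.05 and -4.73 on slide 1 and not well above background on slide 2. Trim25, a ubiquitin ligase that activates RIG-I, read 4.51, 3.99, 4.16, 4.53 and 4.79 by its brightest probe.

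The OAS family, whose active members make the messenger that activates RNase L, varied line by line. Oas1a read -0.26, 0.00, 2.66, -0.25 and 1.08, so that #620-6 stood out and its 7.59-fold span did not follow genotype or the line families. Oas2 read -3.74, -2.36, -1.54, -3.14 and -2.76, lowest in RF8 and highest in the #620 pair. Oasl1 read -3.64, -3.58, -2.83, -2.19 and -3.54. Oasl2 read -1.09, -2.59, -2.99, -1.99 and -1.72, the order of Isg15 but for the place of the #620 lines between themselves. These are 4 orders for 4 genes, and Oas2 and Oasl2 ran in opposite directions between RF8 and the #620 pair.

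The interferon-inducible GTPases held the widest span of the set among genes well above background in every line. Gbp2, a guanylate-binding protein of the gamma response, read 2.35, -1.03, -1.42, 0.14 and 1.10, a 13.6-fold span. A span of more than 4-fold was found for 5 of the 34 probes well above background in every line (14.7%, beside 4.95% of all such probes), those of Zbp1, Isg15, Oas1a, Oas2 and Gbp2. Gbp3, from a probe the files name Gbp4 but whose accession is now that of Gbp3, read 1.62, -1.63, -1.17, -0.72 and 0.17. Igtp, a GTPase of the IRG family, read 1.41, -0.18, -0.17, 0.19 and 0.98. In each of these the order was RF8, then #757-2, then #757-1, then the #620 pair. Mx2, a dynamin-like antiviral GTPase, had another order, with -4.96 in RF8, -3.60 in #620-2 and -3.45 in #620-6, and was not well above background in the #757 lines. Iigp1, another IRG GTPase, was well above background in #620-2 only, at -3.54. Mx1 was not in any line.

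The membrane proteins were well above background and above the 75th percentile of the array in every line. Ifitm1, which restricts viral entry, read 4.11, 2.80, 3.81, 4.58 and 4.71. Ifitm2 read 3.33, 3.50, 3.66, 3.66 and 3.82, and Ifitm3 read 3.88, 4.27, 4.18, 5.06 and 4.96. Bst2 (tetherin), which holds budding virus at the cell surface, read 4.78, 3.72, 4.32, 4.89 and 4.88. For Ifitm1 and Bst2 the #620 lines were lowest, while for Ifitm2 and Ifitm3 RF8 was.

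Of the enzymes that act on RNA, Adar spanned 0.59 by its brightest probe and Eif2ak2 0.85 (1.81-fold). Eif2ak2 (PKR), the kinase that stops translation on double-stranded RNA, read -0.52, -1.37, -1.03, -0.86 and -0.88. Adar, which edits adenosine to inosine, read 0.51, -0.08, 0.01, 0.21 and 0.18. A second probe of Adar put RF8 lowest in place of highest, with up to 0.59 between the probes. Isg20, an exonuclease, read -2.89, -4.12 and -3.52 on slide 1 and was not well above background on slide 2. Among the remaining effectors, Parp14, an ADP-ribosyltransferase, read 1.39, -0.15, -0.21, 0.18 and 0.92, with RF8, #757-2 and #757-1 above the #620 pair as for Gbp2. Ifi35 read 0.95, -0.15, 0.31, -0.21 and 0.84. The chemokine Cxcl10 read -1.51, -2.99, -1.78, -3.11 and -2.66. Rsad2 (viperin), which makes a chain-terminating nucleotide, was well above background in #620-6 only, at -4.36, and Ifi44 in no line.

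**Figure D3:**
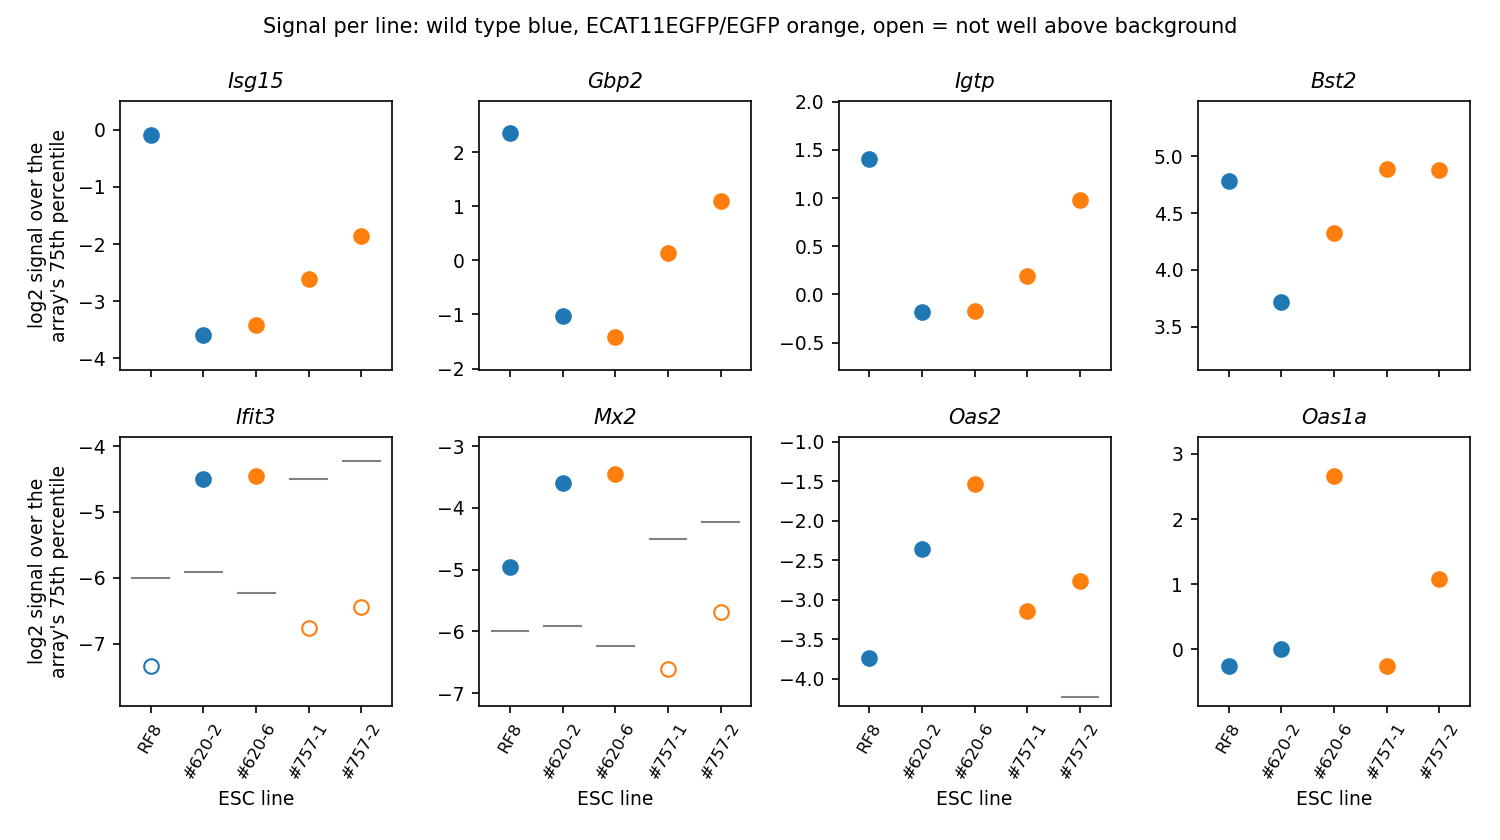
Log2 signal over the 75th percentile of the array for 8 effectors in the 5 lines, wild type in blue and ECAT11EGFP/EGFP in orange. Each point is 1 array, open points were not well above background, and grey dashes give the lowest signal well above background on that array. Isg15, Gbp2 and Igtp are highest in RF8, Mx2 is highest in the #620 pair, and Ifit3 is well above background in that pair only.

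The first comparison was that of the study, ECAT11EGFP/EGFP lines against wild-type lines. Of the 59 probes, 49 (for 35 genes) were Present on at least 1 array and were tested with limma over 28972 probes. Calls were made at an adjusted p below 0.05 together with more than 2-fold. No probe of the set was called, beside 1 of all 28972 (0.00345%). At an unadjusted p under 0.05 there were 4 of 49 (8.16%), beside 7.61% of all probes, 2 higher (Trim25 by a dimmer probe, and Rsad2; beside 4.03% of all probes) and 2 lower (Tlr3, and Ifit2 by a dimmer probe; beside 3.59%). These shares are close to those of all probes. Of 34 probes well above background in every line, 4 (11.8%, beside 11.7%) had every ECAT11EGFP/EGFP line above the wild type and 1 (2.94%, beside 11.4%) had every one below. The methods' t-test called none and had 5 at an unadjusted p under 0.05 (10.2%, beside 7.31% of all probes).

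Rsad2 had the smallest p of the set by genotype (adjusted p = 0.287, limma), but it was well above background in #620-6 only. Tlr3 was the only gene with an unadjusted p under 0.05 by its brightest probe and a signal well above background throughout 1 genotype. The wild-type lines averaged -4.59 ± 0.84 (SD, n = 2), and none of the 3 ECAT11EGFP/EGFP lines was well above background (adjusted p = 0.551, limma). Against the mean of the limits of those 3 lines, which are approximate, the wild type was 1.31-fold higher. The limits of the #757 lines, -4.5 and -4.23, lay above the wild-type mean. The Tlr3 probe entered the test only through the wild-type lines. Its fitted log2 difference of -1.64 rests on values at background and was -0.25 with normexp background correction. The #757 arrays, 2 of those 3, had the higher background. Over the 17 effectors well above background in every line the median log2 difference was 0.02, with 9 higher and 8 lower. That median was 0.48 without RF8 and -0.38 without #620-2, so its sign followed the wild-type line kept. Receptors and signalling factors (6 genes) had a median of 0.01, and all 20622 probes well above background in every line had -0.003.

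The 2 wild-type lines, which also differ in strain origin and gender label, were farther apart than the #620 lines, which differ in genotype. Other pairs of a wild-type and an ECAT11EGFP/EGFP line were not counted. Between RF8 and #620-2, 14 of 34 probes of the set that were well above background in every line differed by more than 2-fold (41.2%), beside 8.53% of all such probes. They belong to Irf1, Zbp1, Isg15, Oas2, Oasl2, Gbp2, Igtp, Ifitm1, Bst2, Ifi35, Parp14 and Cxcl10, and all but Oas2 were higher in RF8. Between #620-6 and #620-2, which differ in genotype but share the slide, the gender label and the family number, 3 of 34 did (8.82%, beside 5.81%). Those were Oas1a, Ifitm1 and Cxcl10, by 2.66, 1.01 and 1.22, each higher in #620-6. Between #757-2 and #757-1, which share genotype, slide and label, 4 of 34 did (11.8%, beside 1.73%), namely Zbp1, Oas1a and Ifi35, higher in #757-2 by 1.48, 1.33 and 1.05, and Oasl1, with a difference of -1.35. For 11 of the 34 probes (32.4%, beside 13%) all 3 ECAT11EGFP/EGFP lines lay between the 2 wild-type lines, as for Isg15, Irf1, Stat2, Igtp and Parp14. These are counts over single arrays, with no test.

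The second comparison set RF8, the only line of 129sv origin, against the 4 lines of mixed origin. With 1 line on a side, strain and line cannot be told apart, and RF8 is taken to vary like the others. No probe was called (0.00345% of all were). At an unadjusted p under 0.05, 9 of 49 probes passed (18.4%, beside 7.11% of all probes), all 9 higher in RF8 (beside 4.04%) and 0 lower (beside 3.08%). Of the 9, 3 (Ifih1 and dimmer probes of Tlr3 and Parp14) were well above background in RF8 alone and could only have been higher there, so nothing is read from this count. Isg15 was 2.79 ± 0.74 (SE) higher in RF8 on the log2 scale, 6.89-fold (adjusted p = 0.615, limma). Ifit1 was 2.24 ± 0.40 higher (adjusted p = 0.479), Tlr3 1.96 ± 0.61 and Ifit2 1.54 ± 0.49 (adjusted p = 0.671 for both). In all 4 genes RF8 was above every other line. Of those 4 other lines, 3 were not well above background for Ifit1 and Tlr3 and 1 for Ifit2, so that these fitted sizes rest in part on values at background. With normexp background correction they were 0.57 for Ifit1, 0.49 for Tlr3 and 0.68 for Ifit2. Isg15 was measured in all lines and was 2.19 with it. Within slide 1, where RF8 stood against the #620 pair, the differences were 3.42, 2.05, 1.85 and 1.27.

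RF8 was the highest of the 5 lines for 16 of the 34 probes well above background throughout (47.1%, beside 25.1% of such probes) and the lowest for 9 (26.5%, beside 21.1%). The effectors had a median log2 difference of 0.43, with 12 of 17 higher in RF8, and receptors and signalling factors a median of 0.13, beside 0.020 for all such probes. Within slide 1 the effector median was 0.76.

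The third comparison was between the gender labels, that is, #620-2 and #620-6 (labelled female) against RF8, #757-1 and #757-2 (labelled male). The label and the family of the lines cannot be told apart. No probe of the set was called, beside 103 of all probes (0.356%). At an unadjusted p under 0.05 there were 15 of 49 (30.6%), beside 18% of all probes. Of these 5 were higher in the #620 pair (10.2%, beside 9.69%) and 10 lower (20.4%, beside 8.33%). The methods' t-test called none and had 8 at an unadjusted p under 0.05 (16.3%, beside 16.2% of all probes).

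The genes lower in the #620 pair came from several roles. Gbp2 differed most, at -1.22 ± 0.28 (SD, n = 2) against 1.20 ± 1.11 (n = 3), a log2 difference of -2.42 ± 0.68 (SE; adjusted p = 0.194, limma). Oasl2 differed by -1.19 ± 0.32, Ifitm1 by -1.16 ± 0.38 and Igtp by -1.04 ± 0.39 (adjusted p from 0.183 to 0.274). For Irf1 the difference was -0.99 ± 0.27, for Bst2 -0.83 ± 0.22, for Stat2 -0.59 ± 0.15 and for Trim25 -0.53 ± 0.16 (adjusted p from 0.171 to 0.209). In all 8 genes the groups did not overlap by the brightest probe. A dimmer probe of Trim25 read 0.93, 1.09, 1.77, 1.31 and 1.89, with overlapping groups and a difference of 0.06 ± 0.38 (adjusted p = 0.954). Over the 34 probes well above background throughout, both #620 lines were below the other 3 for 16 (47.1%, beside 23.3%) and above them for 4 (11.8%, beside 17.6%). Gbp2, Igtp, Bst2 and Stat2 hold an ISRE core in the window searched, and Irf1 a GAS. Oasl2, Ifitm1 and Trim25 hold neither, and Ifit3, which was higher in the #620 pair, also holds the core.

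Higher in the #620 pair were Ifit3, Mx2, Oas2 and Ddx58. Ifit3 was at -4.48 ± 0.03 (SD, n = 2) in the pair and not well above background in the other 3 lines (adjusted p = 0.0732, limma). Against the mean of the limits of those 3 lines, which are approximate, the pair was 1.35-fold higher. The limits of the #757 lines, -4.5 and -4.23, lay at about the values of the pair, so that Ifit3 separated the pair from RF8 only. Its probe entered the test only through that pair, the fitted log2 difference of 2.37 rests on values at background, and it was 0.50 with normexp background correction. On slide 2 the limit is set by the higher background. The fitted log2 difference of Mx2 was 2.22 ± 0.51 (SE; adjusted p = 0.147), with 2 of the 3 other lines not well above background, and was 0.62 with normexp background correction. Oas2 differed by 1.26 ± 0.40 (0.79 with normexp) and Ddx58 by 0.59 ± 0.20 (adjusted p = 0.224 and 0.248). Within slide 1 each of these 12 genes kept its direction, from -3.58 for Gbp2 to 1.79 for Oas2 among genes well above background on that slide, but there the only line labelled male is RF8, so that this comparison and that of RF8 use the same 3 arrays.

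**Figure D4:**
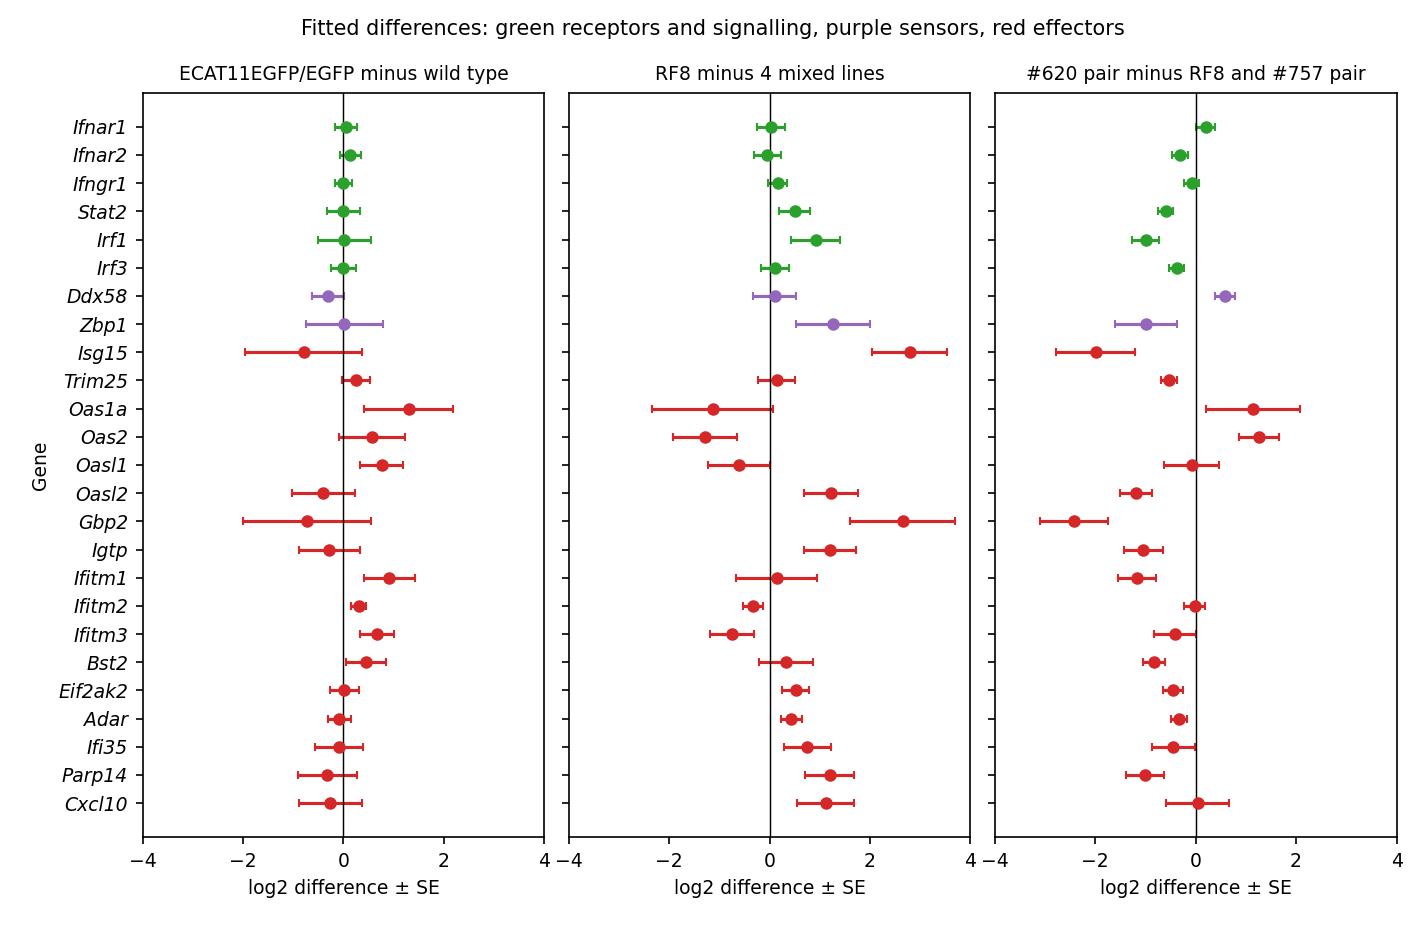
Fitted log2 difference ± SE (horizontal axis) of the 25 genes well above background in every line, in the 3 comparisons over all 5 arrays. Points are genes, coloured by role. In the genotype comparison the points lie around 0, with a median of 0.02 for the effectors, against 0.43 for RF8 and -0.45 for the #620 pair.

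The effectors had a median log2 difference of -0.45 in the #620 pair, with 14 of 17 lower, and receptors and signalling factors had -0.34 with 5 of 6 lower, beside -0.043 for all such probes. Line by line, the median of the 17 effectors from their own 5-line means reached 0.39 in #757-2 and 0.35 in RF8, stood at 0.04 in #757-1, and was -0.19 in #620-6 and -0.51 in #620-2. For all such probes it lay between -0.026 and 0.021. The pattern of RF8 highest, with both #620 lines below both #757 lines, was shown by 11 of 34 probes (32.4%), beside 9.95% of all such probes. These belong to Stat2, Irf1, Isg15, Oasl2, Gbp2, Igtp, Eif2ak2, Adar and Parp14. The comparisons share arrays, and their counts are not independent of each other.

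Whether the genotype difference itself depended on the gender label was tested as an interaction, with 1 residual degree of freedom. No probe was called in the set or among all 28972 (0%), and 10 of 49 had an unadjusted p under 0.05 (20.4%, beside 10.5%). That of Cxcl10, the largest among genes well above background in every line, was 2.59 ± 0.43 (SE; adjusted p = 0.333, limma). In Cxcl10 the ECAT11EGFP/EGFP line was above the wild-type line in the #620 pair, and both #757 lines were below RF8. Among the lines labelled male, genotype cannot be told apart from slide, strain origin and line family. Without the filter on dim probes 14 of 59 were called (23.7%), beside 23.8% of all 41174 probes.

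Most interferon genes were at or near background. Of 9 interferon genes with a probe, Ifna2, Ifna4, Ifnb1 and Ifnk were not well above background in any line. Ifna1 was in RF8 only, at -5.69, and Ifng, the type II ligand, in #620-6 only, at -5.91. Ifna9 and Ifnab were in the lines of slide 1, between -3.99 and -3.66 and between -5.10 and -4.56. Ifnz, at -2.80, -2.82, -2.65, -4.28 and -4.17, was well above background throughout and lower on slide 2 than on slide 1.

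Among kinases and the second chain of the gamma receptor, Jak1, Tyk2 and Ifngr2 differed by at most 0.57 between lines. Jak1 read 1.24, 1.60, 1.74, 1.33 and 1.17, Tyk2 -0.84, -0.27, -0.50, -0.51 and -0.70, and Ifngr2 -1.12, -0.85, -1.12, -0.84 and -0.88. Jak2 spanned 0.77 and was highest in RF8. Over the lists of other pathway genes (84 probes tested, 59 genes), 0 were called by genotype or for RF8, and 1 by gender label. That was a probe of Ifi204, a DNA-binding protein of the interferon-inducible p200 family, higher in the #620 pair, and it was singled out only once its values were known. By its brightest probe Ifi204 read -4.73 in RF8, -1.23 in #620-2 and -0.93 in #620-6 and was not well above background in the #757 lines. At an unadjusted p under 0.05, 8 of the 84 were higher (9.52%, beside 9.69% of all probes) and 4 lower (4.76%, beside 8.33%) in the #620 pair. In RF8, 4 were higher (4.76%, beside 4.04%) and 0 lower (beside 3.08%). In the ECAT11EGFP/EGFP lines 3 were higher (3.57%, beside 4.03%) and 4 lower (4.76%, beside 3.59%).

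Among the other pathway genes well above background in every line, the widest spans were those of Ccl2, Rtp4, Nmi, Irf8 and Ifnz. The chemokine Ccl2 read -2.85, 1.09, 1.21, -4.72 and -3.79, far higher in the #620 pair. Rtp4, an interferon-induced chaperone, read -0.83, -3.16, -3.21, -3.85 and -2.43, highest in RF8. Nmi, which binds Ifi35, read 2.34, 0.29, 1.22, 1.76 and 2.44, and Irf8 read -1.68, -2.15, -3.77, -1.74 and -1.88.

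Markers of fibroblasts, the cell type of feeder layers, also differed between lines. Summed over 10 genes in units of the 75th percentile, RF8 gave 15.8, the #620 lines 10.1 and 9.52, and the #757 lines 2.44 and 4.74. Between 7 and 10 of the 10 were well above background in a line. Most of the sum of RF8 came from Col1a1 and Col1a2. Col1a1 read 2.97, 0.80, 0.56, -0.01 and 1.15, and Col1a2 2.51, 1.62, 1.54, -1.38 and -0.05. Both were highest in RF8, as were Pdgfrb and Postn. Thy1 (0.52, 1.71, 1.70, -0.50 and 0.06), Dcn and Col3a1 were highest in the #620 pair. Twist2 differed little between the lines of slide 1. Lum and Pdgfra were well above background in the #620 pair only, Pdgfra at -1.99 and -1.95. Ccl2, Ifi204 and Mx2 were highest in the same pair as Pdgfra, and Ifit3 was well above background there only. Their part in the results on RF8 and on the #620 pair was not tested. In bulk RNA, more cells of a type and more RNA per cell cannot be told apart. Markers of endoderm and differentiated cells summed to 55.8 in RF8 and to between 15.7 and 31.0 in the other lines, most of it from Krt18, which read 5.76, 3.81, 4.82, 4.80 and 4.90. Among markers of endoderm itself, Sox7, Gata6 and Sox17 ran another way. Sox7 read -5.35, -1.83, -1.12, -3.24 and -2.78, Gata6 -3.07, -1.35, -2.30, -3.51 and -3.69, and Sox17 -4.99 in RF8 and -2.64 in #620-2, with #620-6 near the latter and neither #757 line well above background. Each of them was highest in the #620 pair, while Gata4, Foxa2 and Dab2 did not set that pair apart. Gata4 read -5.12, -5.25 and -5.28 on slide 1 and was not well above background on slide 2. Foxa2 read -3.91, -2.93, -3.19, -2.94 and -4.14, and Dab2 -1.80, -1.49, -2.19, -2.14 and -2.14. Between the gender labels 1 of 13 probes of endoderm and differentiated markers (Sox17) was called, and 1 of 14 of fibroblast markers (Pdgfra). Of all probes 0.356% were. The part of these markers was not tested either.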

How the data were processed

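One-colour Agilent arrays, 1 per line, measured Cy3-labelled total RNA of 5 ESC lines. The authors deposited scanner output of Feature Extraction 9.5.3.1, whose background-corrected intensity was used here, and a processed log2 table, used as an alternative. Spots at background carry a surrogate intensity in these files.

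Control spots (1639 of 45018) and spots marked as outliers or non-uniform (0.335%) were left out. Intensities were scaled to the 75th percentile of each array and put on the log2 scale, and spots of a probe were averaged. Probes Present on at least 1 array (28972 of 41174) were tested with limma 3.58.1 in R 4.3.3, Benjamini-Hochberg adjusted, at 0.05 and 2-fold. The genotype, RF8 and gender-label comparisons and an interaction were fitted. A gene was represented by its brightest probe. A log2 difference is printed for members with an unadjusted p under 0.05 whose brightest probe cleared background throughout at least 1 group, at most 12 per comparison. Where the other group was not well above background, a fold against its limits is given, which is approximate. The number of arrays limits the precision. For 2 lines against 3, the smallest p of an exact permutation test is 0.1. The 42 genes, the roles and the other lists were chosen with earlier results of these data known. Alternatives covered background correction (normexp, offset 50), scaling, filters, covariates, the slide, tests and the omission of single lines. Simulated data were used to test the code. Names and promoters came from RefSeq GRCm38.p6, while the files place probes on mm7. Data were read with the data.table (version 1.17.8) and pandas (2.3.3) packages, and figures drawn with matplotlib 3.10.9. One further pathway gene is not reported here.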

Additional observations from a re-analysis of the deposited data

Results flagged for a closer look

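Among the 4 lines of mixed background, the 25 genes well above background on every array were searched for a line apart from the rest with Dixon's test, and 0 passed its critical value. The wild-type and the ECAT11EGFP/EGFP groups are too small for that test.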

How the results depend on the processing

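The labels give the lines no replicate numbers. Only #620-2 and #620-6 share a family number across genotypes, which is 1 pair, so no paired analysis was possible. The count of member probes called stayed at 0 in 61 of 63 alternatives over the 4 comparisons. The exceptions were 1 probe between the gender labels with quantile normalization (Ifit3, log2 difference 2.84, adjusted p from 0.0346 to 0.26 over 15 alternatives), and 14 of 59 (23.7%, beside 23.8% of all probes) in the interaction without the filter on dim probes, where probes at surrogate values enter; the cause was not tested. Of 280 refits of named differences none changed direction, 279 kept their side of the threshold and the exception was Ifit3. The filters, the variance trend and the t-test leave a fitted difference as it was, so these refits say nothing on direction or on the medians below. Sizes of dim genes did move: over the alternatives the log2 difference for RF8 ran from 0.57 to 2.44 for Ifit1, 0.49 to 2.28 for Tlr3, 0.68 to 1.82 for Ifit2 and 0.52 to 3.13 for Ifih1, that by label from 0.50 to 2.86 for Ifit3 and 0.62 to 2.62 for Mx2, and that of Tlr3 by genotype from -2.23 to -0.25, each smallest in size with normexp background correction. Of 100 refitted medians of differences, 8 moved by more than the spread between lines. For the effectors the median was 1.06 for RF8 with genotype as a covariate and -0.76 for the gender label with the slide as a block. For receptors and signalling factors it was -0.22 by genotype with the slide as a block, and -0.24 by label with the slide as a block and -0.13 with all probes of a gene averaged. Leaving out each line in turn gave effector medians from -0.38 to 0.48 by genotype, 0.38 to 0.47 for RF8 and -0.62 to -0.44 by label, and medians of receptors and signalling factors from -0.11 to 0.17, 0.11 to 0.18 and -0.43 to -0.25. In the comparison of RF8 that line itself could not be left out, so its ranges do not cover the line on which it rests. With genotype as a covariate, the fit for RF8 comes down to RF8 minus #620-2. With the slide as a block, each fit comes down to the arrays of slide 1. The shifts of the medians in those fits thus follow from the arrays compared. The cause of the other shifts was not tested. On slide 2 the higher background limits what can be said of dim genes.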
